A study of Mus musculus with 6 samples.

Results

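The DNA replication machinery genes are the 38 genes that encode the proteins which copy the genome in S phase, from origin licensing to the closing of the new strands. They were taken by symbol from a list, with enzymes of nucleotide supply left out. All 38 were found among the 24422 genes of the count tables and all 38 had an adjusted p, of 16509 genes that had one. RNA was measured by sequencing of poly-A libraries from whole kidneys of C57BL/6 mice at postnatal day 13, kept on a diet with 220 ppm iron. The Control group held 3 kidneys with the genotype wild type. The TfR1 knockout group held 3 kidneys with the genotype given as Tfr1f/f;SixCre and named for Six2Cre in the sample titles. In this line exons 3 and 4 of the transferrin receptor gene Tfrc (TfR1) are floxed. The Cre is expressed from the Six2 promoter in the progenitors of the nephron, and not in the ureteric bud or the stroma. The study describes cells with the receptor in many proximal tubules and in most remaining thick ascending limbs of this line at the age sequenced here, which limits it as a model of full deletion. The labels do not tie the samples to animals, while the study names separate mice of each model as its samples and littermates as controls.

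In G1 the origin recognition complex, with CDC6 and CDT1, loads the MCM2-7 ring onto DNA, and geminin then blocks a repeat of this loading. In S phase CDC45 and the GINS complex turn the ring into a working helicase, primase and DNA polymerases make the new strands on the sliding clamp PCNA, and RPA coats the single strands. Many of these genes are switched on together at the start of S phase by E2F factors. In the kidney of a mouse pup, cells of the maturing tubules still divide, and transcripts of this group are known to follow the number of cells in cycle. In a bulk sample, fewer cells of a type and less RNA per cell cannot be told apart.

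The libraries held 16591156 to 22898008 counts. Markers of tubule segments were present in all of them. Summed normalized counts of 4 proximal tubule markers were 36780 to 83839 in Control and 26305 to 41162 in knockout kidneys, with 2 of 4 lower by DESeq2. Those of 3 thick ascending limb markers were 42671 to 87247 and 11337 to 23156, with 3 of 3 lower. Those of 6 macrophage markers were 2201 to 3441 and 4996 to 7538, with 4 of 6 higher. Those of 4 stroma markers were 44177 to 91984 and 23457 to 44615, with 1 of 4 lower. Those of 2 distal convoluted tubule markers were 10897 to 21871 and 648 to 1637, with 2 of 2 lower. Those of 3 collecting duct markers were 4862 to 10011 and 24511 to 59085, with 3 of 3 higher. Of 4 nephron progenitor markers, 1 was lower and 1 higher by DESeq2. Six2 reached no more than 7.96 normalized counts in any library. Eya1 had 9.09 to 18.1 in Control and 46.1 to 68.1 in knockout kidneys (DESeq2 adjusted p 0.000418). Meox1 had 386 to 647 and 233 to 309 (DESeq2 adjusted p 0.00827). Cited1 had 29.1 to 101 and 46.7 to 65.3, which overlapped. Control replicate 3 had the lowest proximal tubule and the highest stroma sum of its group. The part of these differences in the results was not tested. Tfrc itself had 5534, 6485 and 3667 normalized counts in Control and 6976, 4045 and 5898 in knockout kidneys. These overlapped (log2 fold change 0.11, SE 0.29, DESeq2 adjusted p 0.853). Counts over the whole gene include exons outside the deleted part and so do not check the labels.

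Replication machinery transcripts were lower in TfR1 knockout kidneys for part of the genes, and none was higher. At an adjusted p under 0.05 (DESeq2), 14 of 38 members, or 36.8%, fell, against 7.18% of all genes tested that fell. The number of members that rose was 0, against 7.74% of all genes, and 0 members had a log2 fold change above 0. Of the 14, 7 fell at least 2-fold, which is 18.4% of the members, against 4.46% of all genes. These were Mcm5, Prim1, Gins1, Pole2, Mcm3, Mcm6 and Pola1. The other 7 were Rfc4, Rfc2, Mcm2, Rpa3, Pcna, Mcm7 and Rpa1. The fitted log2 fold changes of the members ran from -1.30 to -0.11 with a median of -0.66, beside a median of 0.0071 over all genes tested.

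The calls depended on the tool and on single libraries. The edgeR quasi-likelihood test called 0 of 38 members lower and 0 higher at an adjusted p under 0.05, against 2.8% of its genes called lower, with 25 members lower and 0 higher at an unadjusted p under 0.05. DESeq2 had 27 lower at an unadjusted p under 0.05. The share of all genes at an unadjusted p was not counted. Limma-voom called 1 member lower, Prim1, against 2.98% of its genes called lower. Leaving out any single library moved the DESeq2 count. The 14 calls became 3, 4 and 4 without Control replicates 1, 2 and 3, and 4 and 3 without knockout replicates 2 and 3. Of all genes, 3.59%, 3.82%, 6.78%, 5.39% and 4.12% were called lower in these fits, beside 7.18% with all libraries. Without knockout replicate 1 the count was 27, against 10.5% of all genes called lower. Without that library the median log2 fold change of the members was -0.92. Without knockout replicate 2 the median was -0.49. A comparison of 3 with 3 libraries without a model gave 28 of 38 members, or 73.7%, in which every knockout library lay below every Control library, against 16.9% of all genes tested.

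**Figure D1:**
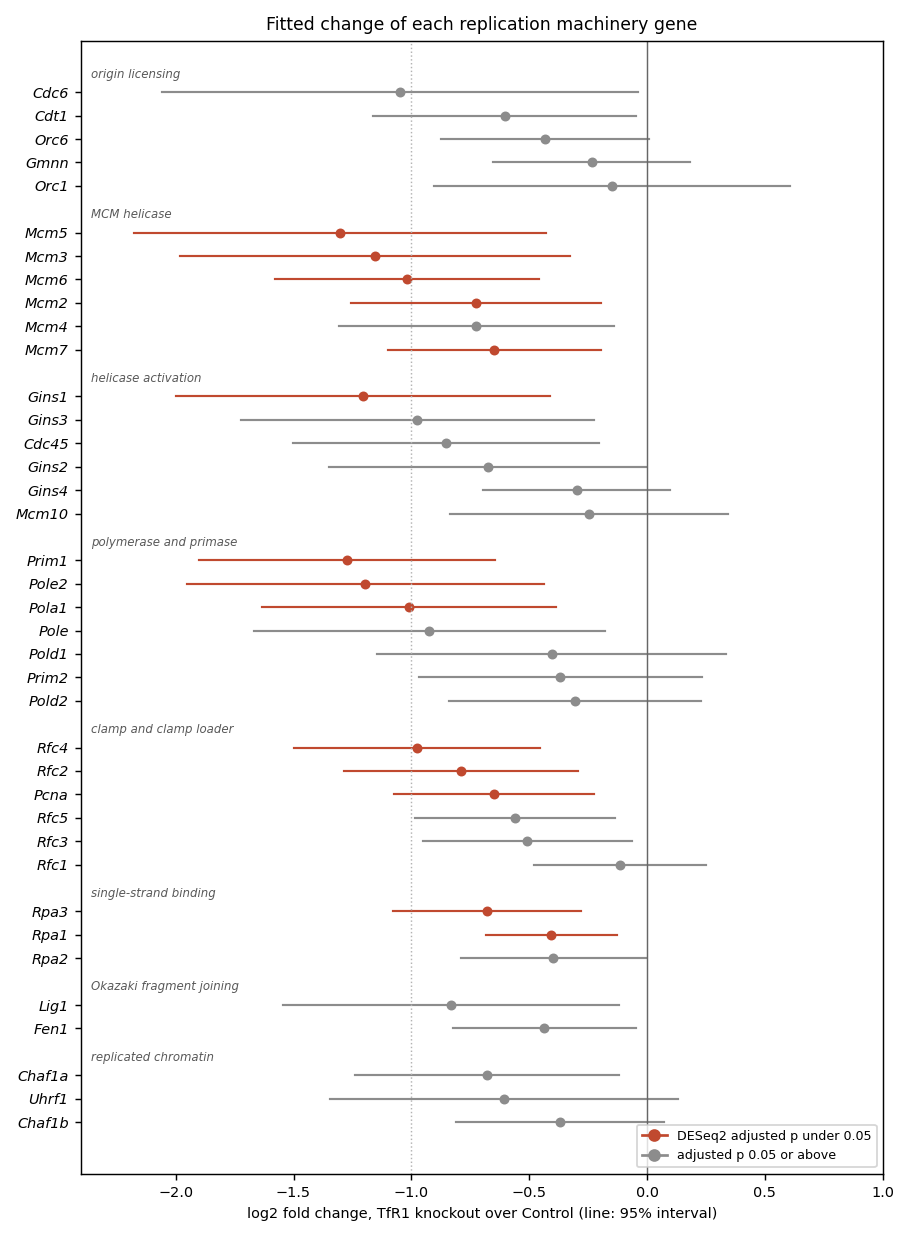
Fitted log2 fold change of each of the 38 replication machinery genes, TfR1 knockout over Control, with its 95% interval, grouped by role. All 38 points lie below 0, 14 genes in red had a DESeq2 adjusted p under 0.05, and the dotted line marks a 2-fold decrease.

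Within the members the genes were grouped by role, and the calls were spread unevenly over the roles. Of the MCM helicase subunits 5 of 6 fell, of the single-strand binding proteins 2 of 3, of the clamp and clamp loader 3 of 6, of the polymerases and primase 3 of 7 and of the helicase activation factors 1 of 6. None of the 5 licensing factors, the 2 enzymes of Okazaki fragment joining and the 3 factors of replicated chromatin passed the DESeq2 test, and 0 passed by edgeR or limma-voom. At an unadjusted p under 0.05, 2, 2 and 1 of these were lower by DESeq2, and 1, 2 and 1 by edgeR. Differences between roles were not tested.

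Licensing factors mark origins and load the helicase. Cdc6, the loading ATPase (chr11:98769115-98785254 in mm9), had 140.2, 155 and 173 normalized counts in the Control libraries and 141, 30.7 and 53.9 in the knockout libraries. Knockout replicate 1 lay within the Control range and the other 2 knockout libraries far below it. The knockout mean was 48.2% of the Control mean (log2 fold change -1.05, SE 0.52, DESeq2 adjusted p 0.163). Without knockout replicate 1 the log2 fold change of Cdc6 was -1.87 with a DESeq2 adjusted p of 1.7e-05. Without knockout replicate 2 it was -0.68 with a DESeq2 adjusted p of 0.392. Cdt1, which delivers the MCM ring, had 327, 364 and 291 in Control and 286, 152 and 206 in knockout kidneys, with no overlap between groups (log2 fold change -0.60, SE 0.28, DESeq2 adjusted p 0.142). Orc6, a subunit of the origin recognition complex, also had all knockout libraries below the Control libraries (log2 fold change -0.43, SE 0.22, DESeq2 adjusted p 0.192). Gmnn encodes geminin, the inhibitor of CDT1, and had 405, 449.9 and 439 in Control and 358, 441 and 302 in knockout kidneys. Here knockout replicate 2 reached the Control range, and the interval of the change included 0 (log2 fold change -0.24, SE 0.21, DESeq2 adjusted p 0.505, 95% interval -0.65 to 0.18). Orc1, an ATPase subunit of the origin recognition complex, had the lowest mean normalized count of the members in Control kidneys, and its groups overlapped (log2 fold change -0.15, SE 0.38, DESeq2 adjusted p 0.845, 95% interval -0.90 to 0.61). The sign of Orc1 turned without Control replicate 3, to a log2 fold change of 0.16.

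The MCM2-7 ring is the motor that unwinds DNA at the fork. All 6 subunits had every knockout library below every Control library, and 5 of the 6 fell by the DESeq2 test. Mcm6 (chr1:130228168-130256233) had 2209.7, 2213 and 2200.2 normalized counts in the Control libraries and 1544, 733 and 988 in the knockout libraries. The Control libraries were close to each other, and knockout replicate 2 was the lowest (log2 fold change -1.02, SE 0.29, DESeq2 adjusted p 0.00499). Mcm5 (chr8:77633427-77652338) had 937, 965 and 1236 normalized counts in the Control libraries and 731, 177 and 362 in the knockout libraries. It had the largest fitted decrease of all members, to 40.5% of the Control mean (log2 fold change -1.30, SE 0.45, DESeq2 adjusted p 0.0287), and its knockout libraries were also far apart. Mcm3 (chr1:20793055-20810359) had 869.9, 927 and 1055 normalized counts in the Control libraries and 713, 188 and 378 in the knockout libraries. Its order of libraries was the same as that of Mcm5, with knockout replicate 1 nearest to Control (log2 fold change -1.15, SE 0.42, DESeq2 adjusted p 0.0443).

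Mcm2 (chr6:88833469-88848774) had 1025, 975 and 967 in Control and 822, 425 and 546 in knockout kidneys, and passed the threshold narrowly (log2 fold change -0.73, SE 0.27, DESeq2 adjusted p 0.0494). Mcm7 (chr5:138605811-138613650) had 1290.4, 1319.8 and 1811 in Control and 1119.7, 791 and 909 in knockout kidneys (log2 fold change -0.65, SE 0.23, DESeq2 adjusted p 0.0373). Of its exon bases, 12.6% lie under exons of Ap4m1, Cops6, Mir25 or Mir93. Mcm4 (chr16:15623990-15637493) had 812, 789.9 and 789 in Control and 653, 297 and 496 in knockout kidneys and did not pass the test, with a fitted change of the same size as that of Mcm2 (log2 fold change -0.72, SE 0.30, DESeq2 adjusted p 0.0814). Among the subunits, Mcm6 was called in 5 of 6 fits that left out a library, Mcm5 in 2, and Mcm2, Mcm3, Mcm4 and Mcm7 in 1 each. In each case the fit without knockout replicate 1 was among them. Without knockout replicate 1, Mcm5 reached a log2 fold change of -1.95 (DESeq2 adjusted p 7.94e-07) and Mcm3 of -1.74 (DESeq2 adjusted p 5.61e-06). Without knockout replicate 2, Mcm5 was at -0.93 (DESeq2 adjusted p 0.0474) and Mcm3 at -0.80 (DESeq2 adjusted p 0.0726).

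Levels of the subunits can be set beside each other only per length. In normalized counts per kilobase of annotated exon, Mcm6 was the most abundant subunit in Control kidneys at 506 ± 1.55 (mean ± SD, n = 3), and Mcm4 the least at 222 ± 3.66. Mcm6 was the highest and Mcm4 the lowest subunit in each Control library and in knockout replicate 1. Mcm5 was the lowest in knockout replicates 2 and 3. The highest was Mcm7 in replicate 2 and Mcm6 in replicate 3. In knockout kidneys Mcm6 was at 249 ± 95, Mcm7 at 212 ± 37.7 and Mcm5 at 121 ± 80.7. The balance between subunits was thus not the same in all libraries. Mcm5 made up 14.2%, 14.5% and 16.6% of the summed level per kilobase of the 6 subunits in the Control libraries and 14.1%, 7.55% and 10.8% in the knockout libraries. Its share was lower in every knockout library than in every Control library, by a narrow margin in replicate 1. Mcm2 held 13.5% to 16.1% of the sum in Control and 16.5% to 18.9% in knockout kidneys, and Mcm4 10.3% to 12% and 12.3% to 14.4%, both with no overlap. The margin in replicate 1 was narrow here too, at 16.49% for Mcm2 and 12.3% for Mcm4. The shares are parts of the same sum and so do not move independently of each other. With 3 libraries a group, an exact permutation test of these shares cannot go below p = 0.1, and no test was made. The per-kilobase lengths are the union of all annotated exons, which can overstate the length of the transcripts present.

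**Figure D2:**
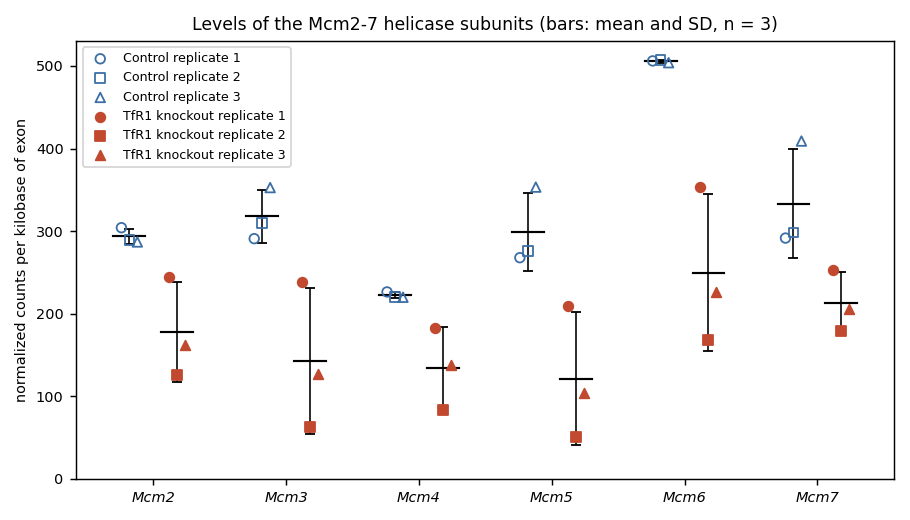
Normalized counts per kilobase of exon (vertical axis, from 0) of the 6 MCM2-7 subunits, with each library as a point, Control open and TfR1 knockout filled, and the mean and SD of each group (n = 3). In each of the 6 subunits the 3 knockout libraries lie below the 3 Control libraries, and knockout replicate 2 is the lowest.

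The promoters of these genes were searched for the letters of sites that E2F factors are known to bind. The strings were TTTGGCGC, TTTCCCGC, TTTGGCGG and TTTCCCGG, on both strands, within windows of 300 bases that run from 250 bases before to 50 after each RefSeq transcript start (GRCm38.p6). Windows were at hand for 30 members, the others being Gins1, Gins2, Gins4, Gmnn, Mcm4, Pole, Prim2 and Rfc2. At least 1 string occurred in 14 of the 30 genes, or 46.7%, beside 3.79% of 27025 genes with a window and 6.03% of the 12375 of these that were tested here. The members were not alone in this among the lists described below. A string occurred in 12 of 32 other replication factors (37.5%), whose list had a median log2 fold change of -0.28. It occurred in 4 of 12 genes of the E2F and Rb families and partners (33.3%, list median -0.12). Of 19 mitosis genes 1 held a string (5.26%, list median -0.97). TTTGGCGC alone was found in 6 of 30 members and 0.585% of all genes, TTTCCCGC in 6 and 1.24%, TTTGGCGG in 3 and 0.625%, and TTTCCCGG in 0 and 1.47%. No matches overlapped each other in the members. Of the 14 members with a match, 7 fell, with a median log2 fold change of -0.90 (range -1.30 to -0.40). Of the 16 with a window and no match, 5 fell, with a median of -0.50 (range -1.27 to -0.11), so the ranges overlapped. Genes without a match here include Prim1 and Rfc4, which had the smallest adjusted p of the members. A match is a description of letters and does not show that a factor binds, and this split was not tested.

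The stretches that hold the matches are shown for the MCM subunits, because this complex had the largest share of members that fell. Each is read 5′ to 3′ on the strand of the gene from RefSeq, GRCm38.p6, with the match in capitals and up to 30 bases on either side. Mcm6 (chr1:128359715-128359845, minus strand) holds the same string at 2 places, 110 and 47 bases before the start. Mcm3 (chr1:20820263-20820323, minus strand) holds 2 different strings, 19 and 38 bases after the start. Mcm5 (chr8:75109330-75109397, plus strand) and Mcm7 (chr5:138172011-138172078, minus strand) hold 1 each, 149 and 165 bases before it. Mcm2 had no match, and the 100 bases around its start (chr6:88898741-88898840, minus strand) are shown for comparison.
Mcm6: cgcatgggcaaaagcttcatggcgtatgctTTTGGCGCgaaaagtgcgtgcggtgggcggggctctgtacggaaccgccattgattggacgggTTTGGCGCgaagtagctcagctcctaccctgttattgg
Mcm3: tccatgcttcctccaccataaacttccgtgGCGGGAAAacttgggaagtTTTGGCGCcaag
Mcm5: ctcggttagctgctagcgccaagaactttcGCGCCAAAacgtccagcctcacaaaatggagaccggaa
Mcm7: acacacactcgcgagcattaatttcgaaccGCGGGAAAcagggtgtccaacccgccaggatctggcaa
Mcm2: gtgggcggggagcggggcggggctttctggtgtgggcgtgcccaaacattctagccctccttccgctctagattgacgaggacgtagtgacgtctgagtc
Mcm6, Mcm3 and Mcm5 share the string TTTGGCGC or its reverse complement GCGCCAAA. Mcm4 had no window. Prim1 fell more than Mcm6 and Mcm3 (log2 fold change -1.27) and held no match. Whether a string goes with the size of a change was not tested. Cdt1 holds TTTGGCGC too and was not called (log2 fold change -0.60, DESeq2 adjusted p 0.142). Mcm7 carries the reverse complement of TTTCCCGC.

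Helicase activation factors join the loaded ring in S phase, and 1 of 6 fell. Gins1 (chr2:150731136-150757016), a subunit of the GINS complex that holds CDC45 and MCM together, had 98.1, 112 and 152 normalized counts in the Control libraries and 79.6, 35.8 and 40.7 in the knockout libraries. Knockout replicates 2 and 3 were close to each other and replicate 1 was higher, and all 3 lay below Control (log2 fold change -1.20, SE 0.40, DESeq2 adjusted p 0.0251). The other GINS subunits did not pass. Gins3 had 127, 136 and 158 in Control and 96.5, 37.1 and 79.5 in knockout kidneys (log2 fold change -0.98, SE 0.38, DESeq2 adjusted p 0.0649). Gins2 had no overlap either (log2 fold change -0.68, SE 0.34, DESeq2 adjusted p 0.181), but 67.3% of its exon bases lie under exons of Gse1 on the other strand. Gins4 was the subunit with the smallest change (log2 fold change -0.30, SE 0.20, DESeq2 adjusted p 0.348), and its 3 knockout libraries differed little from each other. Cdc45, the partner of GINS, had 248, 223 and 257 in Control and 179, 78 and 145 in knockout kidneys and did not pass the test (log2 fold change -0.85, SE 0.33, DESeq2 adjusted p 0.0619). Mcm10, which helps to start the helicase, had 171, 191 and 259 in Control and 161, 226 and 136 in knockout kidneys. Its groups overlapped, and knockout replicate 2, the lowest library for most members, was here the highest of the knockout group (log2 fold change -0.25, SE 0.30, DESeq2 adjusted p 0.639, 95% interval -0.84 to 0.34).

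Of the 7 polymerase and primase subunits 3 fell. Prim1, the catalytic subunit of primase that makes the RNA primers (chr10:127452228-127467093), had 415, 444 and 580.2 normalized counts in the Control libraries and 283, 136 and 175 in the knockout libraries. All knockout libraries lay below all Control libraries, and the mean was at 41.3% of Control (log2 fold change -1.27, SE 0.32, DESeq2 adjusted p 0.00132). Prim1 had the smallest adjusted p of the members, was called in all 6 fits that left out a library, and was the only member called by limma-voom (adjusted p 0.041). Its edgeR adjusted p was 0.0522. Prim2, the large subunit of the same enzyme, had 187, 194 and 340.1 in Control and 194, 196 and 168 in knockout kidneys. These overlapped, and Control replicate 3 was the only high library (log2 fold change -0.37, SE 0.31, DESeq2 adjusted p 0.46, 95% interval -0.97 to 0.23).

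Pola1 (chrX:90550106-90877494), the catalytic subunit of polymerase alpha that extends the primers, had 481, 419 and 578 normalized counts in the Control libraries and 356, 175 and 201 in the knockout libraries (log2 fold change -1.01, SE 0.32, DESeq2 adjusted p 0.0155). Pole2 (chr12:70302766-70329177), the second subunit of polymerase epsilon on the leading strand, had 115, 135 and 163 normalized counts in the Control libraries and 90.5, 38.4 and 50.1 in the knockout libraries (log2 fold change -1.20, SE 0.39, DESeq2 adjusted p 0.0186). In both genes knockout replicate 1 was nearest to Control and replicate 2 farthest. The catalytic subunit Pole had a smaller fitted change than Pole2 with a similar SE and did not pass (log2 fold change -0.92, SE 0.38, DESeq2 adjusted p 0.0823). The polymerase delta subunits, which work on the lagging strand, did not pass either. Pold1 had 438, 495 and 535 in Control and 582, 197 and 329 in knockout kidneys, so that knockout replicate 1 was the highest of all 6 libraries and replicate 2 the lowest (log2 fold change -0.40, SE 0.38, DESeq2 adjusted p 0.521). Without knockout replicate 1 its log2 fold change was -0.89 with a DESeq2 adjusted p of 0.0198. Without knockout replicate 2 it was -0.10 with a DESeq2 adjusted p of 0.906. Pold2 overlapped between groups (log2 fold change -0.30, SE 0.27, DESeq2 adjusted p 0.499, 95% interval -0.84 to 0.23).

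The promoter stretches of the 2 polymerase genes that fell and hold a match are shown as above. That of Pola1 (chrX:93632256-93632323, minus strand) lies 138 bases before the start and that of Pole2 (chr12:69228143-69228210, minus strand) 10 bases after it. Both hold the same letters as Mcm5.
Pola1: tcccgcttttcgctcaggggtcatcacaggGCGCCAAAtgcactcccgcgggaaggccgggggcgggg
Pole2: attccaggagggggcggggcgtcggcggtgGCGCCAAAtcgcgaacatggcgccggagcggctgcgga

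The sliding clamp and its loader gave 3 calls of 6. Pcna, the clamp that tethers the polymerases (chr2:132074898-132079050), had the highest level per kilobase of all members, 1141 ± 221 in Control and 727 ± 109 in knockout kidneys (mean ± SD, n = 3). Its normalized counts were 2432, 2431 and 3349.8 in Control and 2038, 1538 and 1656 in knockout kidneys. No knockout library reached the lowest Control library (log2 fold change -0.65, SE 0.22, DESeq2 adjusted p 0.0236). GENCODE lists 2 pseudogenes of Pcna, whose copies can lower the counts of uniquely aligned reads.

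The clamp loader is a ring of 5 subunits that opens PCNA. Rfc4 (chr16:23114016-23127810) had 211, 210.0 and 276 in Control and 135, 90.8 and 127 in knockout kidneys (log2 fold change -0.97, SE 0.27, DESeq2 adjusted p 0.00373). It was called in all 6 fits that left out a library, although 12.6% of its exon bases lie under exons of Eif4a2 on the other strand. Rfc2 (chr5:135058560-135074198) had 1200.5, 1275 and 1421 in Control and 1003, 571 and 677 in knockout kidneys (log2 fold change -0.79, SE 0.25, DESeq2 adjusted p 0.0174). The other small subunits, Rfc5 (log2 fold change -0.56, SE 0.22, DESeq2 adjusted p 0.0593) and Rfc3 (log2 fold change -0.51, SE 0.23, DESeq2 adjusted p 0.117), had no overlap between groups and did not pass. Rfc1, the large subunit, had 1119, 971 and 1301 in Control and 1117, 1063 and 951 in knockout kidneys. It had the smallest fitted change of all 38 members (log2 fold change -0.11, SE 0.19, DESeq2 adjusted p 0.739, 95% interval -0.48 to 0.25).

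RPA is the trimer that coats single-stranded DNA, and 2 of its 3 genes fell. Rpa3, the smallest subunit (chr6:8205936-8209173), had 315, 313 and 384 normalized counts in the Control libraries and 198, 201 and 232 in the knockout libraries (log2 fold change -0.68, SE 0.20, DESeq2 adjusted p 0.00997). Rpa1, the large DNA-binding subunit (chr11:75111668-75161826), had 1621, 1624 and 1485 normalized counts in the Control libraries and 1258, 1192 and 1121 in the knockout libraries (log2 fold change -0.41, SE 0.14, DESeq2 adjusted p 0.0322). In these 2 genes the knockout libraries were close together, and replicate 2 was not the lowest for either. Rpa2 had 566, 514 and 669.5 in Control and 416, 505 and 408 in knockout kidneys, without overlap and without a call (log2 fold change -0.40, SE 0.20, DESeq2 adjusted p 0.176). The promoter of Rpa1 holds 1 match 217 bases before the start (chr11:75348563-75348630, minus strand), with the letters CCGCCAAA, the reverse complement of TTTGGCGG.
Rpa1: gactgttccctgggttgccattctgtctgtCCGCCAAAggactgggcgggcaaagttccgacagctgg

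The genes of Okazaki fragment joining and of replicated chromatin act behind the fork. Lig1, the ligase that seals the fragments, had 858, 882 and 862 in Control and 757, 258 and 446 in knockout kidneys. The groups did not overlap, but knockout replicate 1 was near the Control libraries (log2 fold change -0.83, SE 0.36, DESeq2 adjusted p 0.108). Fen1, the flap nuclease of the same step, had a smaller spread and a smaller change (log2 fold change -0.44, SE 0.20, DESeq2 adjusted p 0.124). Of its exon bases 84.2% lie under exons of 1810006K21Rik or Gm10143 on the other strand, and whether strand was used in the counting is not given in the sources used here, so reads of the partners cannot be told apart. Exons of Lig1, Chaf1a, Rfc5, Cdc45, Pole and Orc1 also overlap another gene, over 0.8% to 10.7% of their bases. Uhrf1, which carries DNA methylation over to the new strand, had 1039, 1001 and 945 in Control and 1022, 329 and 607 in knockout kidneys. Knockout replicate 1 was within the Control range and replicate 2 far below it (log2 fold change -0.61, SE 0.38, DESeq2 adjusted p 0.294). The chromatin assembly subunits Chaf1a (log2 fold change -0.68, SE 0.29, DESeq2 adjusted p 0.089) and Chaf1b (log2 fold change -0.37, SE 0.22, DESeq2 adjusted p 0.286) place new histones behind the fork and did not pass.

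The knockout libraries differed from each other across the members. Summed over the 38 genes, normalized counts were 23852, 23871 and 27456 in Control and 20041, 12580 and 14904 in knockout kidneys. Relative to the Control mean of this sum, the knockout libraries stood at 80%, 50.2% and 59.5%. Knockout replicate 2 was the lowest of all 6 libraries for 30 members, and knockout replicate 1 was the highest of the knockout group for 31. Within the knockout group, replicate 2 was the lowest for 30 members, beside 40.2% of all genes tested. The order of replicate 2 below 3 below 1 held in 28 of 38 members, beside 26.9% of all genes tested. Below every Control library were 30 members in replicate 1, 34 in replicate 2 and 37 in replicate 3. The share of all genes below every Control library was not counted for single libraries. Nor was the share of all genes with replicate 2 lowest of all 6 libraries or replicate 1 highest of the knockout group. How far these counts of members exceed the background is thus not known. Knockout replicate 2 also had the lowest size factor (0.782) and the fewest genes with a count (17702, beside 18146 to 18370 in the others). Among Control libraries, replicate 3 was the highest for 27 members, and the share over all genes was not counted. The median log2 ratio of a library to the Control mean over the members was -0.32, -1.20 and -0.69 in knockout replicates 1, 2 and 3, and -0.10, -0.11 and 0.19 in the Control libraries. The same order of knockout libraries was seen in the summed levels of 4 of the 11 marker lists. In knockout replicates 1, 2 and 3 these were 44615, 23457 and 38277 for stroma, 41162, 26305 and 27636 for proximal tubule, 7538, 4996 and 6278 for macrophages, and 43.8, 5.12 and 23.6 for lymphocytes. Their part in the spread of the members was not tested.

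**Figure D3:**
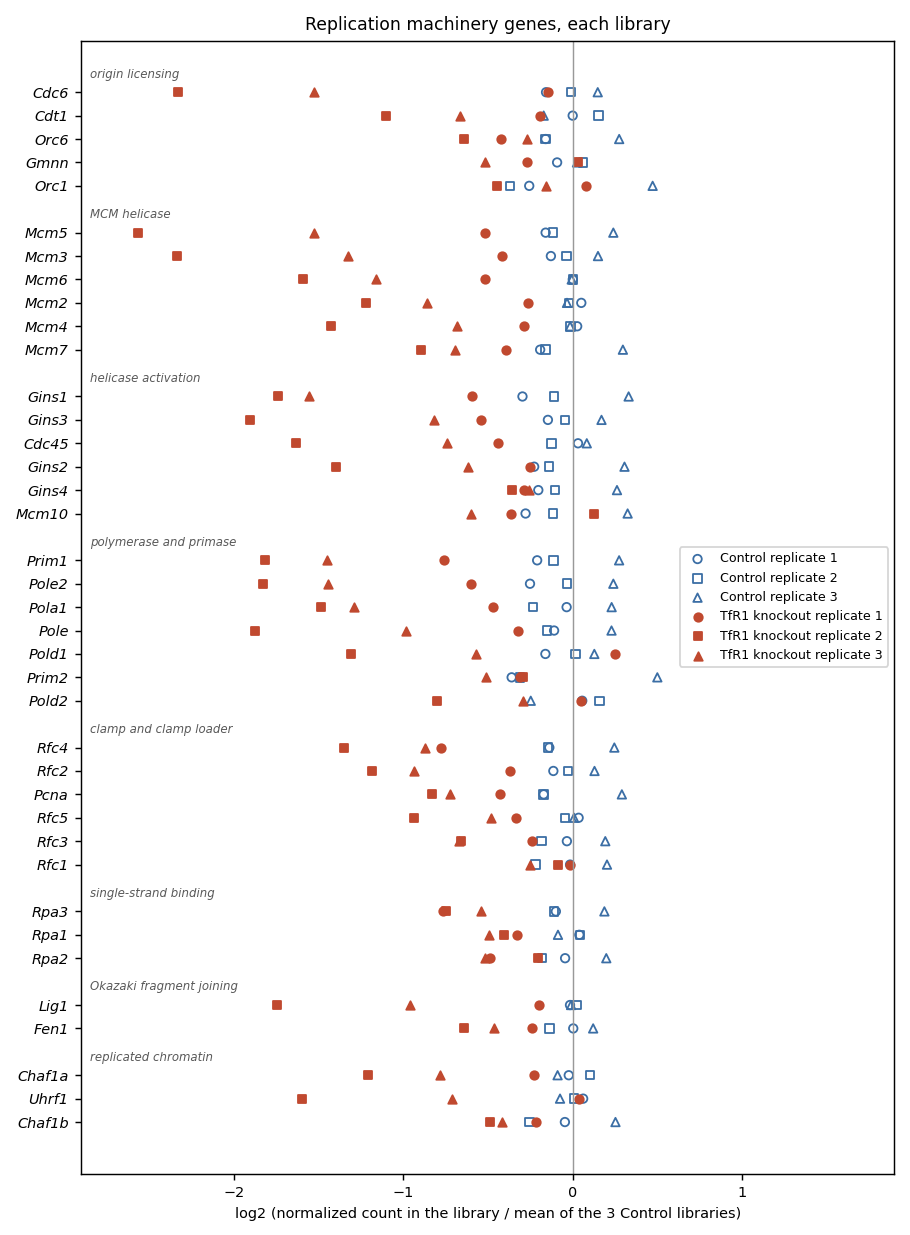
Normalized count of each member in each library over the mean of the 3 Control libraries (horizontal axis, log2), with members grouped by role, Control libraries open and TfR1 knockout libraries filled. Knockout replicate 2 is the lowest library for 30 of 38 members and knockout replicate 1 is the highest knockout library for 31.

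Other genes of the S phase program were taken from 4 lists. Of 36 other replication factors, 8 fell and 0 rose, with a median log2 fold change of -0.28. By edgeR 0 passed in either direction, with 9 lower and 1 higher at an unadjusted p under 0.05 (DESeq2 11 and 1). Rnaseh2b, which removes ribonucleotides from DNA, had the smallest adjusted p (log2 fold change -0.62, SE 0.18, DESeq2 adjusted p 0.00753), followed by Slbp, which binds histone mRNA (log2 fold change -0.58, SE 0.17, DESeq2 adjusted p 0.00827), and Wdhd1, which links polymerase alpha to the helicase (log2 fold change -1.11, SE 0.35, DESeq2 adjusted p 0.0165). Of the genes of nucleotide supply, Rrm1, a subunit of ribonucleotide reductase (log2 fold change -0.83, SE 0.21, DESeq2 adjusted p 0.00193), and Tyms, thymidylate synthase (log2 fold change -0.67, SE 0.20, DESeq2 adjusted p 0.00913), fell. Of 16 genes of the E2F and Rb families and their partners, 3 fell and 0 rose, with a median of -0.12. By edgeR 0 passed, with 5 lower and 1 higher at an unadjusted p under 0.05 (DESeq2 6 and 0). Those that fell were E2f7 (log2 fold change -1.05, SE 0.30, DESeq2 adjusted p 0.00552), E2f2 (log2 fold change -0.78, SE 0.27, DESeq2 adjusted p 0.0289) and E2f8 (log2 fold change -1.14, SE 0.41, DESeq2 adjusted p 0.0385). E2f7 and E2f8 encode repressors of this family and E2f2 an activator.

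A list of mitosis genes was set beside the members as another sign of dividing cells. Of 22 such genes 18 fell and 0 rose (edgeR 14 lower and 0 higher), with a median of -0.97, and 0 were higher at an unadjusted p under 0.05 by either tool. Cenpf, a kinetochore protein (log2 fold change -1.34, SE 0.20, DESeq2 adjusted p 2.98e-09), Ccnb2, a B-type cyclin (log2 fold change -0.97, SE 0.16, DESeq2 adjusted p 2.54e-07), and Bub1b, a checkpoint kinase (log2 fold change -1.04, SE 0.20, DESeq2 adjusted p 4.57e-06), had the smallest adjusted p. The library medians of the mitosis list were -0.76, -1.22 and -0.91 in knockout replicates 1, 2 and 3, beside -0.32, -1.20 and -0.69 for the replication machinery. Knockout replicate 1 was thus nearer to the Control libraries for the replication genes than for the genes of mitosis. This difference between lists was not tested, and the lists were not drawn up independently of these data.

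**Figure D4:**
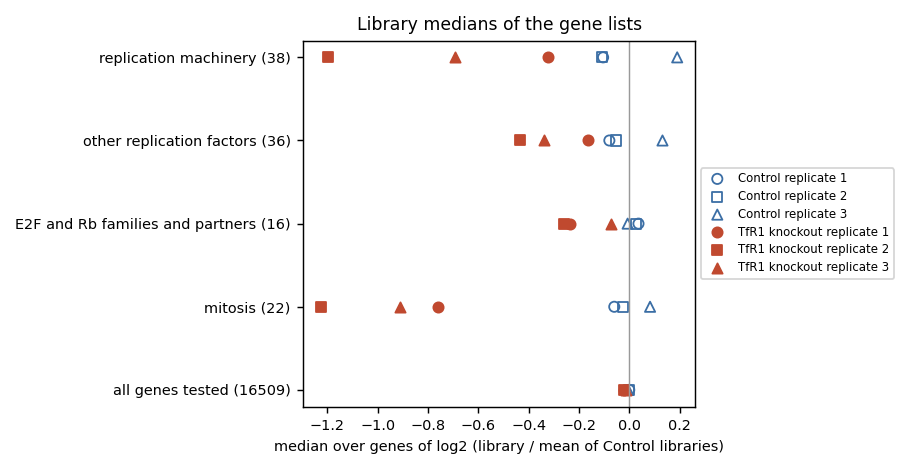
Median over the genes of each list of the log2 ratio of a library to the mean of the 3 Control libraries, with 1 point for each library and the number of genes in brackets. Knockout libraries lie at -0.32, -1.20 and -0.69 for the replication machinery and at -0.76, -1.22 and -0.91 for mitosis, and near 0 for all genes tested.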

How the data were processed

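Poly-A RNA of 6 whole mouse kidneys was sequenced on an Illumina instrument as single-end reads. The values deposited by the authors are raw HTSeq counts, not normalized. They come from Trimmomatic-trimmed reads placed on mm9 by TopHat2 2.0.11, where only reads with a unique position entered. A gene with a near-identical copy can lose reads by this rule. Total counts were 16591156 to 22898008 per library, so that counting error is small for all but the lowest members and the 3 libraries a group limit the precision. Groups were taken from the sample labels.

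The members and gene lists were chosen with earlier results of these data known. The named genes were all 38 members, Tfrc, any cell type marker, and of each other list up to 3 called genes in each direction with the smallest adjusted p. Counts of all 24422 genes were fitted with DESeq2 1.42.0 in R 4.3.3 (Wald test, median-ratio size factors, no covariate, Benjamini-Hochberg adjustment). The study names the tool, and these settings were chosen here. The threshold for a call was an adjusted p under 0.05, and a second count asked for at least 2-fold. Independent filtering left genes with a mean of at least 3.51 counts. Normalized counts are counts divided by the size factor, and ratios to the Control mean were taken with a pseudocount of 0.5. Alternatives were edgeR 4.0.16 (quasi-likelihood), limma 3.58.1 with voom, other size factors and filters, the replicate block and each library left out. The code was tested on simulated data. Gene positions and exon lengths came from GENCODE vM1 (NCBIM37, which is mm9). Promoter windows came from RefSeq (GRCm38.p6) and matched 30 members by symbol. No coordinate was moved between builds. The labels do not say whether the replicate numbers pair the samples, and the main fit used no pairing. Correlations of same-numbered deviations were 0.0148, 0.0663 and 0.155, and the others ran from -0.162 to 0.0448. Such values cannot exclude a pairing, such as by litter. Counts over the list of nucleotide supply genes are not reported here.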

Additional observations from a re-analysis of the deposited data

How the results depend on the processing

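Precision was limited by 3 libraries a group. The 14 members called lower by DESeq2 were 0 by edgeR (25 at an unadjusted p under 0.05) and 1 by limma-voom, and 3 to 27 with 1 library left out. Of all genes, 3.59% to 10.5% were called lower in the fits with 1 library left out. The 7 members at least 2-fold lower were 0 by edgeR and 1 by limma-voom, and 1 to 17 with 1 library left out. The highest counts, 27 and 17, came without knockout replicate 1. The cause of these moves was not tested. Other size factors, the filter on low counts, no independent filtering and no outlier filtering gave 12 to 14 members lower, and the count of members higher was 0 in every fit. The median log2 fold change of the members stayed between -0.92 and -0.49. With total-count size factors, 1407 genes were lower and 996 higher over all genes, beside 1186 and 1277. With the replicate number as a block, 17 members were lower and 9 at least 2-fold, while Rpa1 and Rpa3 were no longer called. Whether the numbers pair the samples is not given in the labels. Over all alternatives the log2 fold change of 1 member turned its sign once, Orc1 to 0.16 without Control replicate 3 (range -0.31 to 0.16 with 1 library left out). The 38 single-member results under these alternatives kept their direction and their side of the threshold in 428 cases, lost the call in 85 and gained it in 18. The 428 include members that were not called and stayed so, and only the 14 called members could lose a call. Of 15 fits with the main one included, these 14 were called in 6 (Mcm2 and Mcm3) to 14 (Prim1).
With only the strings TTTGGCGC and TTTCCCGC searched, 11 of 30 members held a match (36.7%), beside 1.8% of all genes with a window. The share was 25% of the other replication factors, 33.3% of the E2F and Rb list and 0% of the mitosis genes.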
